A study of Mus musculus with 8 samples.

Results

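The 10 genes described here belong to the PRDM family and were followed through 8 clonal mouse liver tumour lines. The members were taken as a fixed list of family genes, Prdm1, Prdm2, Prdm4, Prdm6, Prdm8, Prdm9, Prdm10, Prdm12, Prdm15 and Prdm16. All 10 were measured, among 22180 genes in all, and other family members are outside the list. Intrahepatic cholangiocarcinoma (ICC), a liver cancer that resembles bile duct, gave 4 of the lines, and hepatocellular carcinoma (HCC), which resembles the hepatocyte, gave the other 4. All tumours arose in C57BL/6 mice from hepatocytes transformed by c-Myc with NrasG12V on the pCaMIN vector, so all lines carry the same oncogenes. ICC followed focal electroporation of the liver and HCC followed hydrodynamic tail-vein injection, and tumour type and delivery cannot be told apart. The female-labelled lines are ICC9, ICC10, HCC2.1 and HCC2.4, and the male-labelled lines are ICC2.7, ICC2.9, HCC1 and HCC4. Cells were untreated, each line is a clone measured on 1 array, and the labels give neither the animals behind the lines nor their ages.

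PRDM proteins carry a PR domain, a relative of the SET domain of histone methyltransferases, followed in most members by zinc fingers that bind DNA. A few members methylate histones themselves, while most act by recruiting methyltransferases, deacetylases and other corepressors. The family is known for fixing cell fates: Prdm1 drives plasma cell differentiation, Prdm9 places meiotic recombination, Prdm16 drives brown fat identity and Prdm12 is needed by pain-sensing neurons.

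Values are log2 signals after RMA, a method that normalizes arrays and combines the probes of a gene. The array medians lay between 5.02 and 5.09. The 8 columns of values spanned only 7 directions, because 1 weighted sum of the lines is 0 to within rounding in every probe set. Its weights were 0.78 for ICC9, -0.54 for ICC10 and between -0.15 and 0.18 for the other lines. The weights cancel within each type and within each sex, but not in the interaction of type and sex. They tie the interaction of each gene to gaps between lines of the same type and sex, mainly that between ICC9 and ICC10. The arrays therefore hold fewer independent values than their number. The hepatocyte label was set against 5 markers, of which Hnf4a alone lay above the median gene level (5.66) on average, with Alb at 4.12 to 4.64 in all lines. The Hnf4a mean rested on HCC2.1 (7.26), HCC2.4 (7.06) and ICC9 (5.92), with 5.32 to 5.70 in the other lines. Of 5 bile duct markers Krt7, Krt19 and Sox9 lay above it. Their summed level overlapped between the types (log2 of the sum of all 5, 11.56 to 11.92 in ICC and 11.56 to 12.00 in HCC lines). Krt19 was highest in ICC9 (8.97) and ICC10 (9.26), but lower in ICC2.7 (6.89) and ICC2.9 (6.39) than in HCC2.1 (8.19) and HCC2.4 (7.76). It measured 6.55 in HCC1 and 5.60 in HCC4. Signal over background was not assessed, and probe sets hybridise differently, so levels were compared between lines and not between genes. Of the PRDM genes, 8 had a mean above the median gene level, and Prdm6 and Prdm16 lay below it. P-values measure the spread between these lines, which may share animals or tumours. The type and sex tests count 8 independent values where the columns hold 7, so their p-values and intervals come out too small. With the missing direction in the model, limma called 12 genes between the types, against 58 without it.

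No PRDM gene differed between ICC and HCC lines beyond the test over all genes. At an adjusted p under 0.05 (two-sided test, adjusted over 22180 genes by the method of Benjamini and Hochberg) limma called 0 of 10 members, against 0.261% of all genes called (58 genes). The count over all genes depended on single lines, with 2 genes without ICC9, 4 without HCC2.1, 5 without HCC2.4, 16 without ICC2.7, 28 without ICC2.9, 64 without ICC10, 91 without HCC4 and 109 without HCC1, and 0 members each time. The exact permutation test called 0.0% of all genes after adjustment. Its smallest possible p with 4 against 4 lines, 0.0286, became 0.331 after adjustment over all genes, so it adds nothing to this count. At an unadjusted p under 0.05 limma gave 1 member, Prdm9, beside 14.1% of all genes. The median absolute difference was 0.10 log2 units over the members and 0.13 over all genes, and the median signed difference was -0.03 and 0.00. The difference (ICC minus HCC) was positive for 3 members and negative for 7. Limma also called 0 members under the settings that follow, given with the share of all genes called: trended robust moderation (0.352%), genes above the median level (0.929%), quantile normalization (0.361%), median centring (0.325%), averaged probe sets (0.248%), every probe set (0.251%), the missing direction described above (0.0541%), and a random block of type and sex (0.0271%). The same held with sex in the model (1.93%), with sex and the missing direction (0.537%), in female-labelled lines (3.14%) and in male-labelled lines (0.902%).

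**Figure D1:**
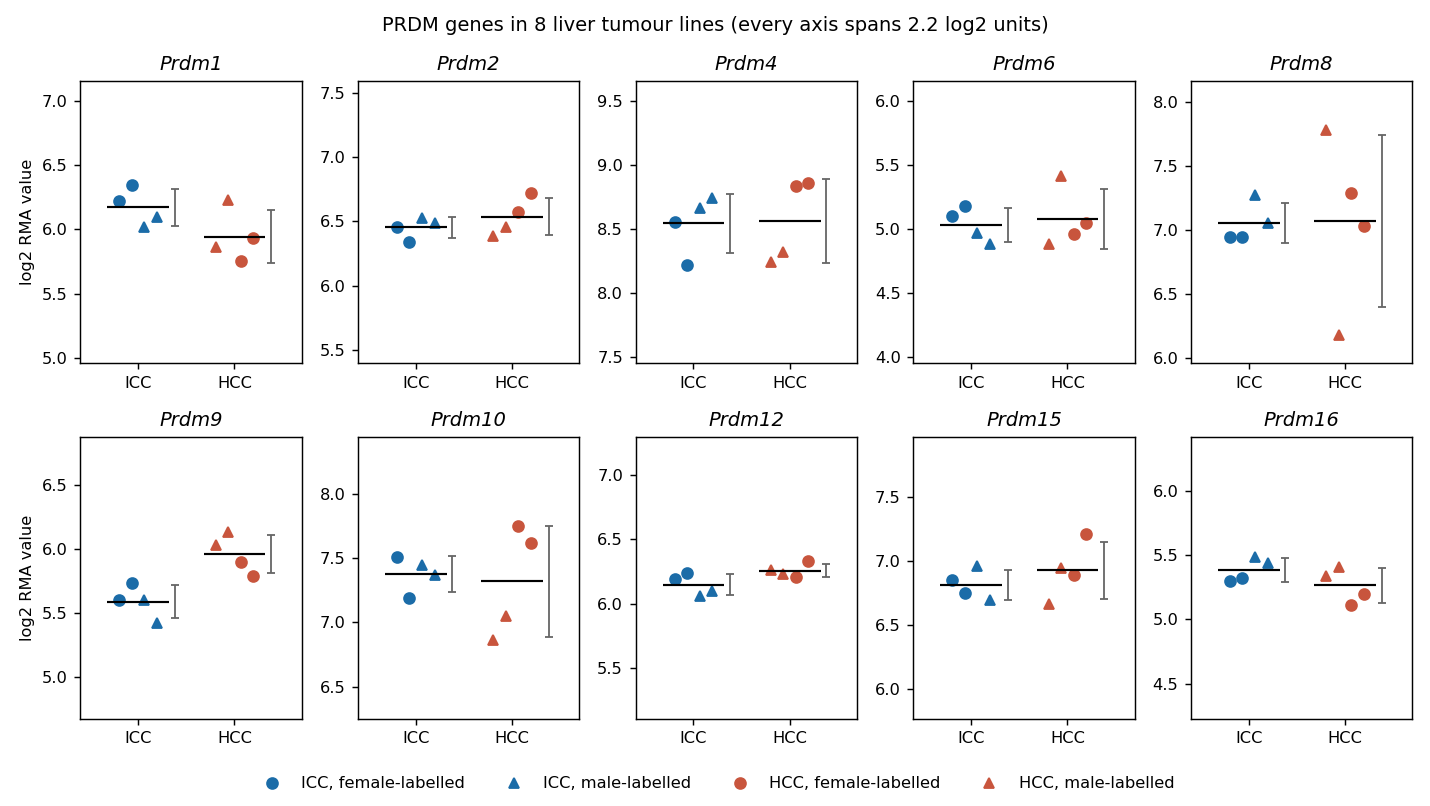
Log2 RMA value (y axis) of each PRDM gene in the 4 ICC (blue) and 4 HCC (red) lines, circles for female-labelled and triangles for male-labelled lines, with the mean as a black bar and the SD as a grey bar beside it. Prdm9 is the one panel in which the types do not overlap, and Prdm8 shows the widest spread, from 6.18 to 7.78 within the HCC lines.

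Prdm9 is the meiotic histone methyltransferase whose zinc fingers direct recombination hotspots in germ cells. Its values were 5.60 in ICC9, 5.73 in ICC10, 5.60 in ICC2.7 and 5.42 in ICC2.9, and 6.03 in HCC1, 6.13 in HCC4, 5.90 in HCC2.1 and 5.79 in HCC2.4. Every ICC line lay below every HCC line, a separation that 8.63% of all genes showed in either direction and 4.44% in this one. The means were 5.59 ± 0.13 in ICC and 5.96 ± 0.15 in HCC lines (SD, n = 4 each), a 1.30-fold lower value in ICC (log2 difference -0.38, SE 0.11, limma adjusted p = 0.176). The 95% interval of the difference, not adjusted, ran from -0.61 to -0.14. With the missing direction in the model it ran from -0.65 to -0.10, and the limma adjusted p was 0.348. The exact two-sided permutation test over the lines gave p = 0.0286 for Prdm9, the smallest p that 4 against 4 lines allow, and 0.331 after adjustment over all genes. The gap was smaller in female-labelled lines (-0.18) than in male-labelled lines (-0.57), and this difference of 0.39 did not pass limma's interaction test (adjusted p = 0.243). The weighted sum ties this difference mainly to the Prdm9 values of ICC9 and ICC10, so neither it nor its test is read as a result about sex. Limma called Prdm9 with sex and its interaction with type in the model (adjusted p = 0.045, with 5.72% of all genes called), a setting chosen after seeing the data. With weighted arrays limma called Prdm9 and Prdm1 (adjusted p = 0.0271 and 0.0425), where 10.3% of all genes were called and the weights did not converge. Over all settings the adjusted p of Prdm9 ran from 0.0271 to 0.522. The summed level of 3 T cell markers, none of which lay above the median gene level, separated the types in the same direction (log2 of the sum 5.64 to 5.77 in ICC and 6.05 to 6.09 in HCC lines), and its part in the Prdm9 values was not tested.

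The window around the most upstream RefSeq start of Prdm9 (250 bases before to 50 after it, GRCm38.p6) is shown because this gene gave the one separation of the types. Capitals mark every match to the letters searched on both strands, which were CACGTG (the Myc and Max E-box), TGACTCA (the AP-1 site), CCGGAAG (an ETS site), GGGCGG (the GC box of Sp1) and TATAAA (the TATA box).
Prdm9 promoter, chr17:15564305-15564604, - strand: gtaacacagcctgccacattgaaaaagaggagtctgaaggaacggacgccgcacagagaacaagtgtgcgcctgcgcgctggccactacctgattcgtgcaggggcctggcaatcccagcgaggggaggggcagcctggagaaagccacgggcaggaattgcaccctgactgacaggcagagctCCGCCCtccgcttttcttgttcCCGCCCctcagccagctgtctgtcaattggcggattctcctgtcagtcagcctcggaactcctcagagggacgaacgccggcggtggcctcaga
Of the 5 motifs this window held GGGCGG alone, 2 times. Of all 32851 windows of the same length 35.7% hold GGGCGG and 7.15% hold CACGTG. The other Prdm9 window in the table held no match.

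Prdm2, also known as RIZ, can methylate histone H3 and binds the retinoblastoma protein. It measured 6.46 in ICC9, 6.34 in ICC10, 6.53 in ICC2.7, 6.49 in ICC2.9, 6.39 in HCC1, 6.46 in HCC4, 6.57 in HCC2.1 and 6.72 in HCC2.4. The whole range was 0.38 log2 units, and the types overlapped (difference -0.08, SE 0.10, limma adjusted p = 0.755).

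Prdm8, a repressor of the retina and brain reported to have histone methyltransferase activity, varied most among the members. Its SD over the 8 lines was 0.45, higher than in 91.3% of all genes. HCC1 stood at 7.78 and HCC4 at 6.18, the highest and the lowest of the 8 lines, although both are male-labelled HCC lines. HCC2.1 measured 7.29, HCC2.4 7.03, ICC2.7 7.27, ICC2.9 7.05, and ICC9 and ICC10 6.94 each. The type means were 7.05 ± 0.16 and 7.07 ± 0.67 (SD, n = 4 each), and the difference of -0.02 had a 95% interval of -0.68 to 0.64. Without HCC4 the difference was -0.32 and without HCC1 it was 0.22, and it was also above 0 without ICC9 or ICC10 (0.0167 each) or HCC2.1 (0.0533), so its sign is not settled by these lines. The genes whose centred values lay nearest to those of Prdm8 over the 8 lines were Twist2, a mesenchymal basic helix-loop-helix factor (mean absolute difference 0.12 log2 units), Fzd7, a Wnt receptor (0.14), and Cyp3a25, a cytochrome P450 (0.14). Twist2 measured 8.32 in HCC1 and 6.13 in HCC4, with 7.19 to 7.59 in the other lines. Fzd7 measured 8.27 and 7.21 in the same lines. Cyp3a25 had a mean of 2.52, far below the median gene. A chromosomal neighbour of Prdm8 in the RefSeq order (GRCm38.p6), the anthrax toxin receptor gene Antxr2, was highest in HCC1 (11.30) and lowest in HCC4 (10.16) as well, while the neighbour on the other side, Fgf5, was highest in ICC2.9 (5.24). These neighbours were looked up after the Prdm8 values were seen.

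**Figure D2:**
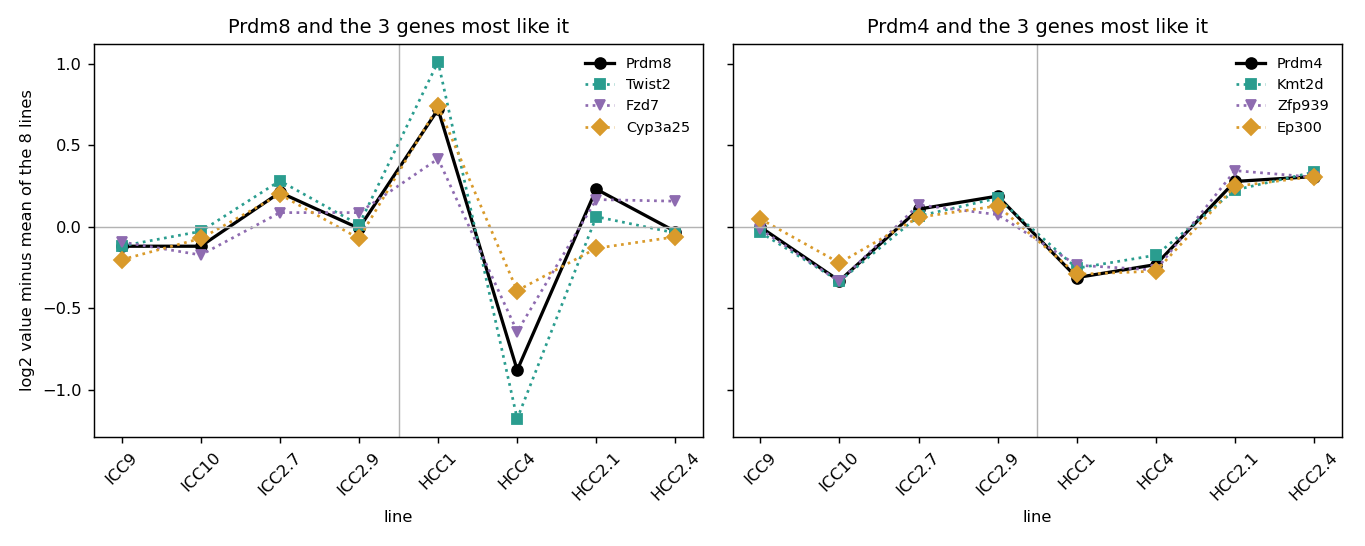
Log2 value minus the gene's mean over the 8 lines (y axis) in each line (x axis), for Prdm8 with Twist2, Fzd7 and Cyp3a25 (left) and for Prdm4 with Kmt2d, Zfp939 and Ep300 (right); the vertical line parts ICC from HCC lines. HCC1 is the highest and HCC4 the lowest line for Prdm8 and each of its 3 nearest genes, and ICC10, HCC1 and HCC4 are the 3 lowest lines for Prdm4 and each of its nearest genes.

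Prdm16, a zinc finger coregulator that directs brown fat and supports stem cells, measured 5.30, 5.32, 5.49 and 5.44 in ICC9, ICC10, ICC2.7 and ICC2.9, and 5.34, 5.41, 5.11 and 5.20 in HCC1, HCC4, HCC2.1 and HCC2.4. The difference between types was 0.12 (SE 0.10, limma adjusted p = 0.606). All 4 female-labelled lines (5.11 to 5.32) lay below all 4 male-labelled lines (5.34 to 5.49), as 8.76% of all genes separated the sexes in either direction. The female minus male difference with type in the model was -0.19 (SE 0.07, limma adjusted p = 0.225). Its dimmer probe set measured 4.96 ± 0.12 in ICC and 4.95 ± 0.02 in HCC lines (SD, n = 4 each). With both probe sets averaged the sex difference was -0.04 (limma adjusted p = 0.845), so it rests on the brighter one.

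Prdm1, known as Blimp-1, is the repressor that ends the B cell programme in plasma cells and also acts in epithelia and germ cells. It measured 6.22 in ICC9, 6.35 in ICC10, 6.02 in ICC2.7 and 6.10 in ICC2.9, and 5.86 in HCC1, 6.23 in HCC4, 5.75 in HCC2.1 and 5.93 in HCC2.4. HCC4 lay among the ICC lines, and the other HCC lines lay below all of them. The means were 6.17 ± 0.14 and 5.94 ± 0.21 (SD, n = 4 each), a difference of 0.23 (SE 0.12, limma adjusted p = 0.442) with a 95% interval of -0.05 to 0.51. The difference was 0.45 in the female-labelled lines and 0.02 in the male-labelled lines. Limma's interaction test, limited by the weighted sum above, did not pass (adjusted p = 0.299). The summed level of 3 B and plasma cell markers overlapped between the types (5.57 to 5.91 in ICC and 5.49 to 6.00 in HCC lines, log2 of the sum), and 0 of these markers lay above the median gene level.

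Prdm6, a repressor of smooth muscle and endothelial differentiation, measured 5.10, 5.18, 4.97 and 4.88 in the ICC lines (ICC9, ICC10, ICC2.7, ICC2.9) and 4.88, 5.41, 4.96 and 5.05 in the HCC lines (HCC1, HCC4, HCC2.1, HCC2.4). HCC4 was highest and the types overlapped (difference -0.04, SE 0.13, limma adjusted p = 0.917). The log2 of the sum of 3 smooth muscle markers ran from 6.49 to 6.90 in ICC and from 6.79 to 7.54 in HCC lines, and 0 of these markers lay above the median gene level. Prdm12, needed for pain-sensing neurons, varied least of the 10 (SD 0.09, from 6.06 in ICC2.7 to 6.33 in HCC2.4), with means of 6.15 ± 0.08 in ICC and 6.26 ± 0.05 in HCC lines (SD, n = 4 each, limma adjusted p = 0.57). Its second, dimmer probe set had the opposite sign (0.12 against -0.11). Prdm15, which sustains naive pluripotency in stem cells, ran from 6.67 in HCC1 to 7.21 in HCC2.4, with ICC lines between 6.70 and 6.96 (difference -0.12, SE 0.12, limma adjusted p = 0.72).

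**Figure D3:**
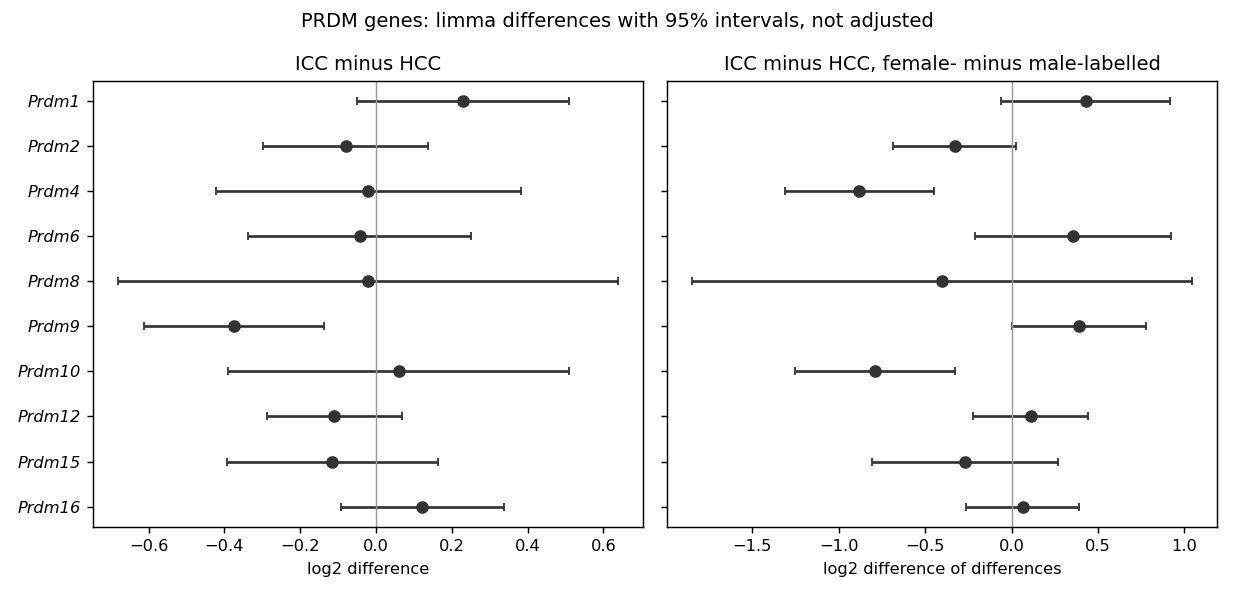
Limma log2 differences (x axis) with unadjusted 95% intervals for each PRDM gene (y axis), ICC minus HCC (left) and that difference in female-labelled minus male-labelled lines (right). On the left the interval of Prdm9 alone lies on one side of 0, and on the right those of Prdm4, Prdm10 and Prdm9 do; none passed the adjusted test.

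Prdm4, which recruits the arginine methyltransferase Prmt5 and takes part in nerve growth factor signalling, had opposite type differences in the sexes. It measured 8.55 in ICC9, 8.22 in ICC10, 8.66 in ICC2.7 and 8.74 in ICC2.9, and 8.24 in HCC1, 8.32 in HCC4, 8.83 in HCC2.1 and 8.86 in HCC2.4. In female-labelled lines both ICC values lay below both HCC values, and in male-labelled lines both lay above. The type difference was -0.46 in the first and 0.42 in the second, and over all lines it was -0.02 (SE 0.18, 95% interval -0.42 to 0.38). Limma's interaction term was -0.88 (SE 0.18, unadjusted 95% interval -1.31 to -0.45), with an adjusted p of 0.113. The ICC male-labelled and HCC female-labelled lines are also the 4 whose names hold "2.", a naming that the labels do not explain. The interaction of type and sex therefore cannot be told apart from whatever that naming stands for. In the deposited values the term is also tied, by the weighted sum above, to the gap between ICC9 and ICC10 (8.55 and 8.22 for Prdm4). The weighted sum gives no direction between the term and that gap between 2 lines of the same type and sex. The term is not read as an effect of sex or naming. By those names the Prdm4 values did not overlap, at 8.66 to 8.86 in ICC2.7, ICC2.9, HCC2.1 and HCC2.4 and 8.22 to 8.55 in the others.

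Prdm10, a zinc finger activator needed in early development, also had opposite type differences in the sexes. It measured 7.51, 7.19, 7.45 and 7.37 in ICC9, ICC10, ICC2.7 and ICC2.9, and 6.86, 7.05, 7.75 and 7.62 in HCC1, HCC4, HCC2.1 and HCC2.4. HCC1 and HCC4 were the lowest of all lines, and HCC2.1 and HCC2.4 the highest. Those 2 highest lines, which were also the highest for Prdm4, were the highest for the hepatocyte factor Hnf4a as well (7.26 and 7.06). The other hepatocyte markers did not share this order. Alb (4.64) and Ttr (5.19) were highest in ICC2.9, Apoa1 in HCC1 (5.94) and Cps1 in HCC2.4 (5.22). The part of Hnf4a in these values was not tested. The type difference was -0.34 in female-labelled and 0.46 in male-labelled lines and 0.06 over all lines (SE 0.20, limma adjusted p = 0.924). The interaction term was -0.79 (SE 0.20, limma adjusted p = 0.121). Prdm2 had the same signs within the sexes, with -0.25 in female-labelled and 0.09 in male-labelled lines, and an interaction term of -0.33 (SE 0.15, limma adjusted p = 0.278).

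**Figure D4:**
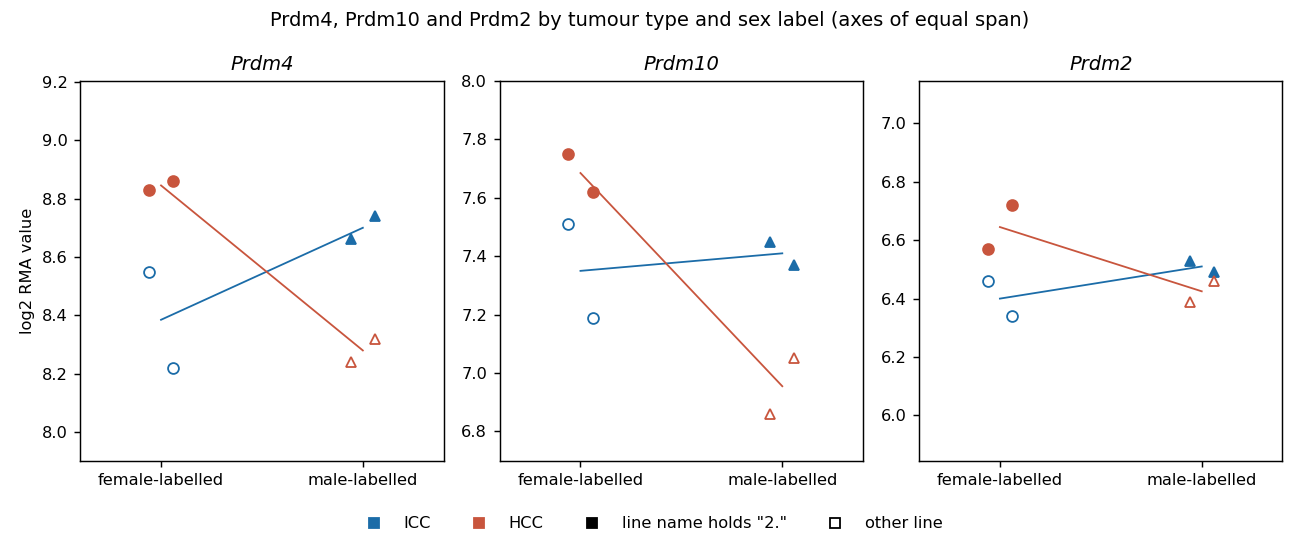
Log2 RMA value (y axis) of Prdm4, Prdm10 and Prdm2 by sex label (x axis) and tumour type (blue ICC, red HCC), filled symbols for the lines whose names hold "2.", and lines joining the means of each type. In each panel the HCC lines lie above the ICC lines on the left and below them on the right; the interaction terms were -0.88, -0.79 and -0.33.

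Opposite type differences without overlap in the sexes occurred in 3 of the 10 members, beside 11.1% of all genes. Limma's interaction test called 0 members and 0 of 22180 genes (0.0%), with 20.1% of all genes and 3 members, Prdm4, Prdm10 and Prdm9, at an unadjusted p under 0.05. The weighted sum ties the interaction mainly to the gap between ICC9 and ICC10, which the same fit counts as error. How far a gene could stand out was therefore limited beforehand, and the 0 is not read as absence of an interaction. The count over all genes was 238 without ICC9, 10 without ICC10 and 255 with the missing direction in the model, with 0 members each time. Prdm4 and Prdm2 were without overlap by line name, both higher with "2." in the name, as were 5.58% of all genes in either direction and 3.13% in this one. The female against male test called 0 members, beside 2.94% of all genes (1.48% higher and 1.47% lower in female-labelled lines), and Prdm16 was the 1 member at an unadjusted p under 0.05, beside 17.5% of all genes. The summed level of the 3 B and plasma cell markers also separated the lines by name, in the other direction (5.49 to 5.67 with "2." and 5.68 to 6.00 without), and its part in these values was not tested.

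The genes nearest to Prdm4 in their centred values were Kmt2d, a histone methyltransferase of enhancers (mean absolute difference 0.04 log2 units), the zinc finger gene Zfp939 (0.04) and Ep300, a histone acetyltransferase (0.05). Kmt2d measured 8.02, 7.72, 8.12 and 8.23 in the ICC lines and 7.80, 7.88, 8.28 and 8.39 in the HCC lines, in the order used above. Nearest to Prdm10 were Lvrn, an aminopeptidase (0.04), Mast2, a microtubule-associated kinase (0.04), and Wwc2, a Hippo pathway regulator (0.05). Among the members Prdm2 and Prdm15 lay closest to each other (0.08, correlation over the 8 lines 0.84), and Prdm4 and Prdm10 were 0.11 apart (correlation 0.88). This measure also comes out small for genes that vary little, such as Prdm2 and Prdm12 (0.11, correlation 0.18). A neighbour of Prdm4 in the same order, the gene Pwp1, was lowest in ICC10 (8.37) and highest in ICC2.7 (9.11), with 8.82 in HCC2.1 and 8.80 in HCC2.4, so it shared the low ICC10 value of Prdm4 but not its high values in those lines.

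The windows around the most upstream RefSeq starts of Prdm4 and Prdm10 are shown because the values of these genes ran close to each other over the lines, with capitals as above.
Prdm4 promoter, chr10:85916937-85917236, - strand: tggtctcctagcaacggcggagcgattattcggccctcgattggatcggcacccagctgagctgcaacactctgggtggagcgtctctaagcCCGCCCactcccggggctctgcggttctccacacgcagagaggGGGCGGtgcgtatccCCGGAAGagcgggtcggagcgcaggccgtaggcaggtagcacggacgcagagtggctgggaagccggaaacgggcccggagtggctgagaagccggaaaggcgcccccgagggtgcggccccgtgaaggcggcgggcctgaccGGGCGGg
Prdm10 promoter, chr9:31280299-31280598, + strand: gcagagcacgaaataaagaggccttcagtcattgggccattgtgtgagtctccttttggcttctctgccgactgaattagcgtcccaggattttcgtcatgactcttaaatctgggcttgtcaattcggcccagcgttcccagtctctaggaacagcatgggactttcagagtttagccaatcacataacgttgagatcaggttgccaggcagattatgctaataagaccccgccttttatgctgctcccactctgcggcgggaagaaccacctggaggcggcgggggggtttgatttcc
The Prdm4 window held CCGGAAG 1 time and GGGCGG 3 times, and the Prdm10 window held none of the 5 motifs. CCGGAAG occurs in 8.86% of all windows. CACGTG was found in 1 of 12 member windows, the second start of Prdm10. The windows shown differ in composition, with 32 CG pairs in Prdm4 and 12 in Prdm10, against a median of 7 over all windows. A window was found for 8 of the 10 members, and 11 of their 12 windows had more CG pairs than that median.

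Around the family, 99 of 105 listed partner and target genes were measured, in 11 lists, and limma called 1 of them, Cdh11, higher in ICC (0.261% of all genes were called), while 17 had an unadjusted p under 0.05, beside 14.1% of all genes. Cdh11, a mesenchymal cadherin gene that Prdm8 represses with a partner in neurons, measured 6.01 ± 0.32 in ICC and 4.62 ± 0.08 in HCC lines (SD, n = 4 each, limma adjusted p = 0.014), while Prdm8 itself measured 7.05 and 7.07. In the list of neural partners and targets of Prdm8 and Prdm12, 6 genes were measured, 1 was called higher and 0 lower, and the median difference was 0.01. Neurog2, a neural basic helix-loop-helix factor, differed by 0.09 (limma adjusted p = 0.67). The count over the lists was 0 without ICC9, ICC2.7, HCC2.1 or HCC2.4 and 2 without ICC10.

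Limma called 0 genes in each of the other 10 lists, where 14.1% of all genes is the share to set beside each count of unadjusted p-values under 0.05. Of 15 corepressors that PRDM factors recruit, 4 had an unadjusted p under 0.05, the median difference was -0.005, and the Groucho genes Tle4 (-0.79, SE 0.21, limma adjusted p = 0.162) and Tle2 (-0.41, SE 0.12, adjusted p = 0.204) had the smallest p. Tle4 lay at 6.56 to 7.03 in ICC and 7.21 to 8.06 in HCC lines, without overlap. Of 14 genes of the Prdm16 partners and brown fat programme, 10 had a negative difference and the median was -0.10. Among them the coactivator Ppargc1a differed by -1.73 (SE 0.33, limma adjusted p = 0.0769), at 5.25 to 6.96 in ICC and 7.70 to 8.15 in HCC lines, and the muscle form of a cytochrome oxidase subunit, Cox7a1, by -0.46 (adjusted p = 0.201). Of 9 genes of the Prdm1 and B-lineage network 1 had an unadjusted p under 0.05, the secretory stress factor Xbp1 (-0.25, limma adjusted p = 0.289), next to the class II transactivator Ciita (0.20, adjusted p = 0.377). The list median was 0.05.

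The 9 measured meiotic genes that work with Prdm9 had a median of 0.04. Mei4, needed for meiotic breaks, differed by 0.79 (SE 0.28, limma adjusted p = 0.263), and Spo11, which makes them, by -0.30 (adjusted p = 0.284) at a low mean level of 3.19 in ICC and 3.49 in HCC lines. The 9 smooth muscle genes of the Prdm6 field had a median of -0.09, with the filament gene Des at -0.87 (limma adjusted p = 0.23) and the coactivator Myocd at 0.28 (adjusted p = 0.275). Among 8 measured genes of H3K9 methylation and its readers 0 had an unadjusted p under 0.05, with the heterochromatin genes Cbx3 at 0.15 and Cbx5 at 0.26 (limma adjusted p = 0.52 and 0.532) and a median of 0.06. Of 11 genes of H3K4 methylation 2 had one, the complex subunits Rbbp5 (0.25, limma adjusted p = 0.311) and Ash2l (0.33, adjusted p = 0.313), with a median of 0.01. The arginine methyltransferases, 7 measured with a median of 0.07, had Carm1 at 0.29 and Prmt6 at -0.16 (limma adjusted p = 0.385 and 0.633). The reported targets of Prdm4, Prdm10 and Prdm15, 7 measured with a median of -0.02, had the Wnt agonist Rspo1 at -0.19 and the neurotrophin receptor Ngfr at -0.28 (limma adjusted p = 0.39 and 0.408). The 6 other genes with a PR domain or of the related FOG type had a median of -0.05, led by Prdm14 and Prdm13 at -0.23 and -0.24 (limma adjusted p = 0.477 and 0.495).

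By line name, the H3K4 methylation genes had 10 of 11 members higher in the lines with "2." in their names, and 5 of 11 without overlap in either direction, beside 47.7% and 5.58% of all genes. They had a median of 0.31 log2 units, against -0.01 for all genes, 0.44 for Prdm4 and 0.40 for Prdm10. In the H3K9 list 6 of 8 were higher, 4 without overlap in either direction, with a median of 0.22. This reading of the lists by name was chosen after the values were seen. The contrast by name is the interaction with its sign turned, so the weighted sum ties it mainly to the gap between ICC9 and ICC10 in each gene. Shared directions among these genes and Prdm4 and Prdm10 may therefore go with that gap between 2 lines. Limma's interaction test called none of these genes, but it is limited in the same way.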

How the data were processed

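RNA (100 ng) from each line was labelled with the Affymetrix WT PLUS kit, per the labels' protocols. The authors deposited log2 values with RMA and oligo as tools, per the submitters' processing notes. Neither their versions nor the annotation is given in the sources used here. Of 39993 probe sets, 23521 name 1 gene, 1814 several and 14658 none; all 23328 with a RefSeq identifier had the same symbol there. A gene took its probe set with the highest mean, and no dim probe set was dropped. Limma 3.58.1 in R 4.3.3 (lmFit, eBayes) tested ICC against HCC without covariates, sex with type in the model, and their interaction, with p-values adjusted over all 22180 genes. The fit was tested on simulated data with 8 independent columns. These lack the weighted sum described above, so its effect on the tests was not simulated. SE is limma's moderated standard error, and ± gives the SD. Likeness is the mean absolute difference of centred values over the 8 lines (18805 genes, without predicted genes, RIKEN clones and small RNAs), for the 3 members with the largest SD. List genes named are up to 4 called, or the 2 with the smallest p. Members and lists were chosen with earlier results of these data known. Alternatives covered moderation, filtering, normalization, array weights, probe sets, a random block of type and sex, covariates, one sex only, and each line left out. Promoter windows come from RefSeq (GRCm38.p6). Other family members are outside the fixed list, and some were tested only among the other PR-domain and FOG genes. Figures used Python 3.11.15 and matplotlib 3.10.9.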

Additional observations from a re-analysis of the deposited data

Results flagged for a closer look

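Of the 10 members, 3 had a difference between ICC and HCC lines that ran in opposite directions in the sexes in every line. The difference in female-labelled minus that in male-labelled lines was -0.88 for Prdm4, -0.79 for Prdm10 and -0.33 for Prdm2. Limma's interaction test did not pass for any of them (adjusted p = 0.113, 0.121 and 0.278), and over the settings run the adjusted p had its lowest values at 0.0615, 0.0652 and 0.155. The same pattern occurred in 11.1% of all genes. The weighted sum of the lines ties the interaction term mainly to the gap between ICC9 and ICC10, which limits what its test can show. No line stood apart within its type in any of the 20 groups of 4 tested.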

How the results depend on the processing

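The count of 0 PRDM members called between ICC and HCC became 2 with array weights, whose fit did not converge, and 1 with sex and its interaction with type, a model added after seeing the data; no other setting moved it, and the sex and interaction counts stayed at 0. The count of called list genes, 1 as reported, was 0 among genes above the median level, with the random block of type and sex and in male-labelled lines, 2 with sex and with sex and the missing direction, 3 in female-labelled lines, 5 with sex and its interaction and 11 with array weights, and 0 to 2 with each line left out. Some of these settings were applied to the lists after seeing the data. Differences near 0 changed sign between ICC and HCC in one sex only for Prdm2 (0.085, male), Prdm4 (0.42, male), Prdm8 (0.18, male), Prdm15 (0.02, male), Prdm6 (0.135, female) and Prdm10 (-0.335, female), with array weights for Prdm6 (0.058) and with averaged probe sets for Prdm12 (0.0038). In the sex comparison Prdm12 turned with averaged probe sets (-0.026) and Prdm8 with quantile normalization (0.0195), and in the interaction Prdm16 did with the latter (-0.0081). With each line left out, the type difference ran from -0.128 to 0.0875 for Prdm4, -0.108 to 0.0692 for Prdm6, -0.32 to 0.22 for Prdm8 and -0.0933 to 0.203 for Prdm10. The sex difference ran from -0.059 to 0.127 for Prdm1, -0.008 to 0.112 for Prdm2, -0.033 to 0.179 for Prdm6, -0.38 to 0.26 for Prdm8 and -0.115 to 0.021 for Prdm9, and the interaction from -1.20 to 0.40 for Prdm8. The cause was not tested. The type difference of Prdm9 kept its sign in all settings run. No paired analysis was possible because the labels give no numbers shared by the types. The 4 arrays per type limit the precision, and signal over background was not assessed.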
